A study of Mus musculus with 9 samples.

Results

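The comparison described here sets hearts of mice with myocardial ischemia/reperfusion injury (MIRI) that were given Guanxinning injection (GXNI) against hearts of MIRI mice given saline. Its members are the 3 libraries labelled GXNI and the 3 labelled MIRI, 6 of the 9 libraries of the series, and the other 3 are sham hearts used only as a reference level. All mice were male wild-type C57BL/6J animals of 8 to 10 weeks. In the MIRI and GXNI mice the left anterior descending coronary artery was tied for 30 min and reperfused for 24 h, and in sham mice the thread was passed without tying. GXNI, an injectable extract of Danshen and Chuanxiong, was given at 9 mL/kg through the tail vein within 10 min of ischemia, and the MIRI mice received saline. The labels number 3 replicates a group without naming the animals, so p-values here measure only the spread between these samples.

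The same 6 libraries were compared in 2 ways. The first followed the deposited labels, GXNI 1 to 3 against MIRI 1 to 3. The second, called the published grouping, set MIRI 2, GXNI 1 and GXNI 2 against MIRI 1, MIRI 3 and GXNI 3, which differs from the labels by an exchange of MIRI 2 and GXNI 3. Among the 20 ways to set 3 of these libraries against the other 3, this one gave log2 fold changes closest to the supplementary fold-change table of the GXNI comparison, at a median absolute difference of 0.00117 log2 units over 1904 genes. The labelled groups differed from that table by 0.753 and ranked 10 of 20. The genes compared were those the study listed as changed, with a mean of more than 20 counts. These differences therefore do not describe genes in general. Because the published grouping was chosen from fold changes of these very libraries, its calls are given as a description without p-values, and which grouping matches the treatment given to each mouse was not tested.

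As background, an ischemic heart that is reperfused releases danger signals that act on Toll-like and interleukin-1 receptors, and NF-kappa-B then drives chemokines and adhesion molecules. CXC chemokines draw neutrophils and CC chemokines draw monocytes into the injured wall. Surviving cardiomyocytes switch on immediate early factors, heat shock proteins and the fetal gene program, while genes of fatty acid oxidation and calcium handling decline. The 54 gene lists used below follow these processes, the other cell types of the heart, and housekeeping machinery.

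The libraries held 17119454 to 22811295 counts, and 3 counts corresponded to 0.132 to 0.175 CPM, counts scaled to a common library size. CPM values near that range rest on few reads. Mitochondrial transcripts took 23% to 29.8% of the counts. The labels give the cell type as cardiomyocytes, and Myh6, the adult ventricular myosin heavy chain, stood at 6598 CPM or more in every library. The libraries also held transcripts of other heart cells, with the endothelial receptor Kdr at 70.8 CPM or more and the smooth muscle actin Acta2 at 66.5 CPM or more in every library. Bulk libraries cannot tell fewer cells of a type from less RNA per cell, which bears on every marker list below.

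Under the deposited labels few genes were called. Of 14762 genes tested with edgeR's quasi-likelihood test, 0 were called higher and 3 lower in GXNI hearts, that is 0.0203% of the genes. A call needed a change of 1.5-fold or more with an unadjusted p no larger than 0.01. An unadjusted p under 0.05 was reached by 47 genes (0.318%), and the smallest adjusted p was 1. DESeq2 called 4 genes higher (0.0142%) and 7 lower (0.0249%), 0.0391% of 28122. With the published grouping the same rule gave 1264 genes higher and 1575 lower, 19.2% of the genes tested (8.56% higher and 10.7% lower), and DESeq2 called 5.32% higher and 6.78% lower, 12.1% of 28125. Without GXNI 3 those counts were 592 and 951, and the count of higher genes was 784 without MIRI 2, 761 without MIRI 3 and 800 without GXNI 1.

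The groupings differed in the size of the changes and, to a lesser degree, in their spread. The median 95% interval of a log2 fold change reached 0.704 to either side under the labels and 0.462 under the published grouping, while the median absolute log2 fold change was 0.123 and 0.404. A fold change of at least 1.5 was seen in 757 genes (5.13%) under the labels and in 5103 (34.6%) under the published grouping. The 3 libraries of each group did not overlap in CPM for 394 genes under the labels (2.67%, with 1.29% higher and 1.38% lower) and for 6841 under the published grouping (46.3%, with 22.6% higher and 23.7% lower). The 4 libraries that hold the same place in both groupings, GXNI 1 and 2 against MIRI 1 and 3, gave 228 genes higher (1.52%) and 520 lower (3.47%), 4.99% of 14984. That set of 4 was chosen after the values were seen.

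**Figure D1:**
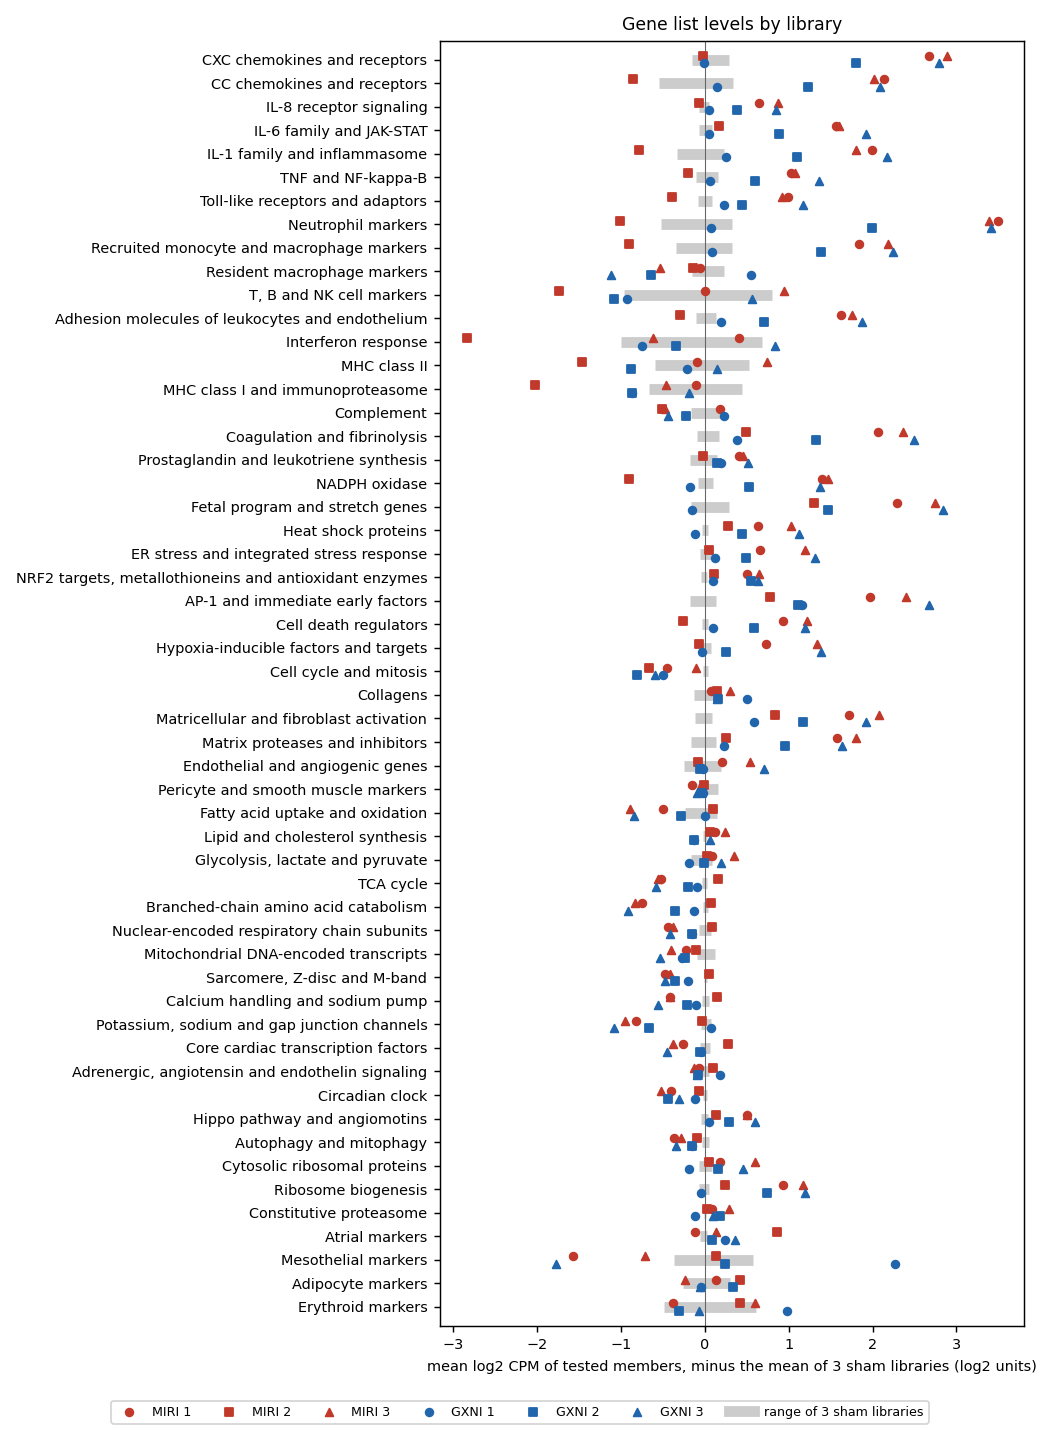
Level of 54 gene lists in each MIRI (red) and GXNI (blue) library, as the mean log2 CPM of the tested members minus the mean of the 3 sham libraries, with the sham range in grey. In the chemokine and neutrophil lists GXNI 1 sits in the sham range, MIRI 2 in or below it, GXNI 2 in between, and MIRI 1, MIRI 3 and GXNI 3 far above it.

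The list levels show how the libraries were ordered. Under the labels the GXNI and MIRI levels did not overlap in 1 of 54 lists, that of lipid and cholesterol synthesis, which overlapped once the called gene Scd4 was left out, and in the other 53 the difference of the group means was smaller than the range within either group. In the published grouping the 2 sets did not overlap in 40 lists. In 31 lists GXNI 2 lay between MIRI 2 with GXNI 1 on one side and MIRI 1, MIRI 3 and GXNI 3 on the other. By calls, 2 of the 54 lists held a called gene under the labels and 51 under the published grouping. That grouping called 8.56% of all tested genes higher and 10.7% lower, and each list count below is to be read beside these shares. Of 1239 distinct members tested, 2 were called under the labels and 416 under the published grouping. The counts per list under the published grouping depend on single libraries: they moved by over 1.5 times in 31 of the 54 lists without MIRI 3, in 30 without GXNI 3, in 20 without GXNI 2, in 19 without MIRI 2, in 18 without GXNI 1 and in 13 without MIRI 1.

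**Figure D2:**
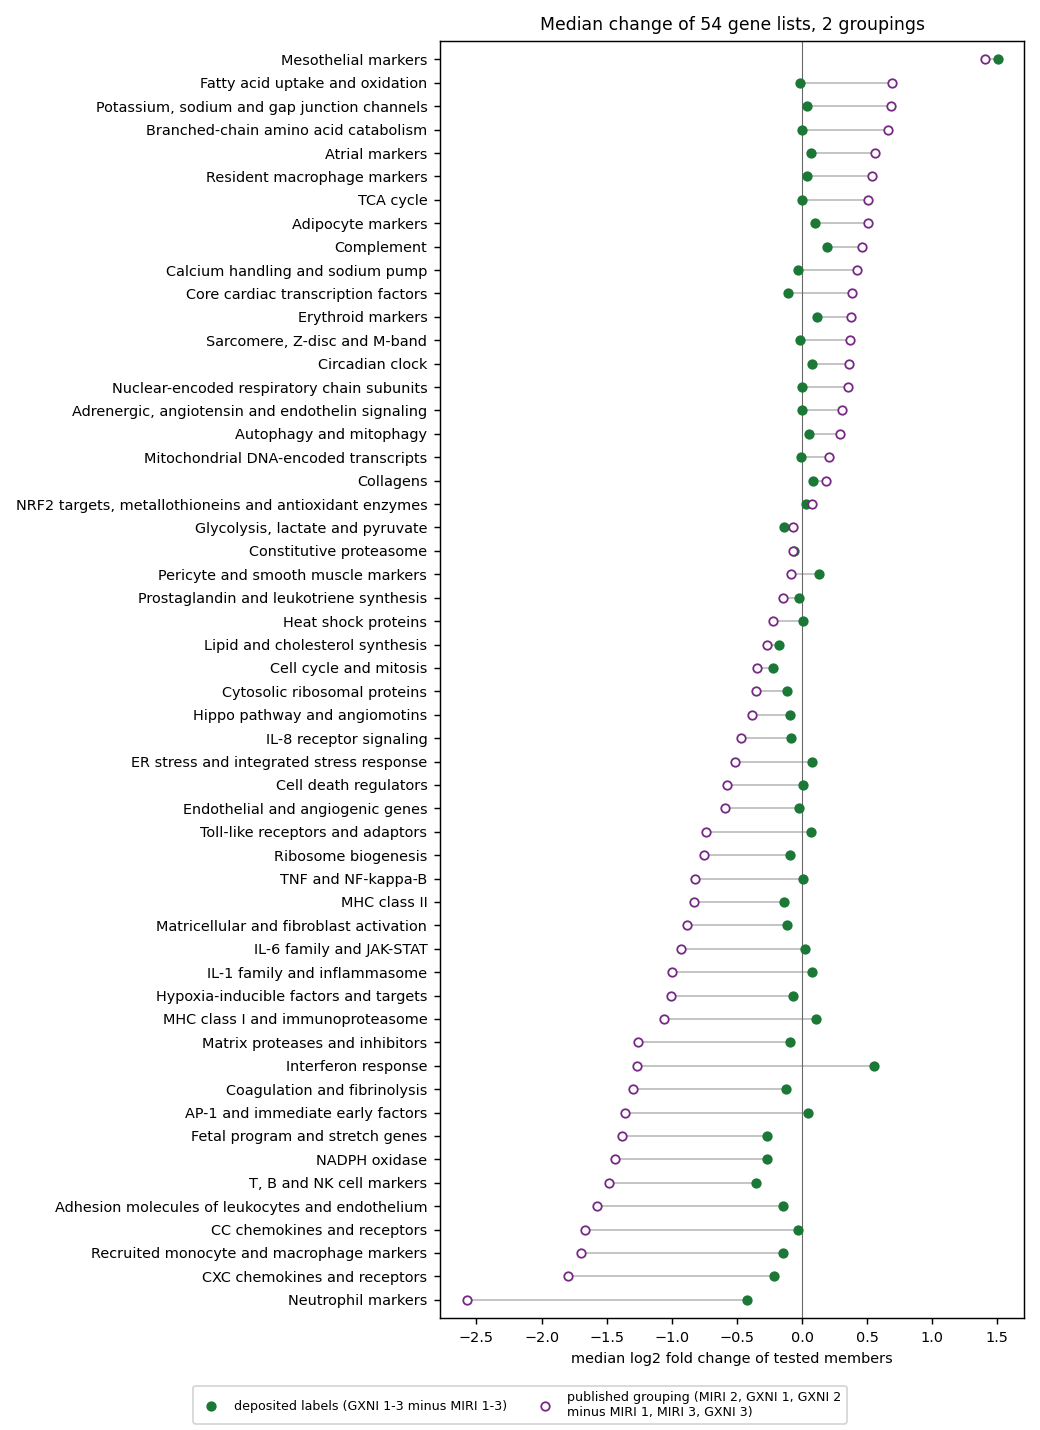
Median log2 fold change of the tested members of each list, filled points for the deposited labels and open points for the published grouping of the same 6 libraries, joined by a line. The filled points of most lists lie near 0, and the open points run from -2.58 for neutrophil markers to 1.40 for mesothelial markers.

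The promoters shown next belong to examples from the inflammatory, heat shock and interferon lists. Windows run from 250 bases before to 50 after the RefSeq transcription start (GRCm38.p6) and were searched on both strands for letters of known regulatory sites, set in capitals. GAANNTTC is the core of the heat shock element bound by HSF1, GGNNTTTCC a short form of the NF-kappa-B site, and GAAANNGAA a short form of the interferon-stimulated response element. Hspa1a (chr17:34972107-34972406, reverse strand) and Hspb1 (chr5:135887669-135887968, forward strand) encode heat shock proteins. Cxcl2 (chr5:90903649-90903948, forward strand) encodes a neutrophil-attracting chemokine, Nfkbia (chr12:55492598-55492897, reverse strand) the NF-kappa-B inhibitor, and Ifit1 (chr19:34640639-34640938, forward strand) an interferon-induced RNA-binding protein.
Hspa1a: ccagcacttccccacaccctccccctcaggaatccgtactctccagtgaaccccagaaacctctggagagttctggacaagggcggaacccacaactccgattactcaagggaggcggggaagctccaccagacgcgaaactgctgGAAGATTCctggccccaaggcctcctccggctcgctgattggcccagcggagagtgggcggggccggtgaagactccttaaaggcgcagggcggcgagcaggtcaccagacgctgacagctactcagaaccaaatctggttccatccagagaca
Hspb1: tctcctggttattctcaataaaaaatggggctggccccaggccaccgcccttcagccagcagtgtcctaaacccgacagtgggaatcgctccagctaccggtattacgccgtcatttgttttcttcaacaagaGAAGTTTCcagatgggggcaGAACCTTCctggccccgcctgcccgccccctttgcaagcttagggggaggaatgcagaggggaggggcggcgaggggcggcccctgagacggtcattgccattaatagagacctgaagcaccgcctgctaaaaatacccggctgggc
Cxcl2: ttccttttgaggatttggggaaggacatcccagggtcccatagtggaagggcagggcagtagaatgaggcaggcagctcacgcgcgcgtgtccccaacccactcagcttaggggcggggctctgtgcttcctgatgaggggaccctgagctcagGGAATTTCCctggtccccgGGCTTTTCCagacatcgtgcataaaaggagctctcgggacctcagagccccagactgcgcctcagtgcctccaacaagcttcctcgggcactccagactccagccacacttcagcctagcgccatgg
Nfkbia: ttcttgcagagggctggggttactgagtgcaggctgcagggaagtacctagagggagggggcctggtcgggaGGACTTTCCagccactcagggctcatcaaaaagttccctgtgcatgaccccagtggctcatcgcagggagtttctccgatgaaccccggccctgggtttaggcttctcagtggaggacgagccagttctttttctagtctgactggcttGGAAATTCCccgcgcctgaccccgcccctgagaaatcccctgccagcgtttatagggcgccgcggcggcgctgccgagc
Ifit1: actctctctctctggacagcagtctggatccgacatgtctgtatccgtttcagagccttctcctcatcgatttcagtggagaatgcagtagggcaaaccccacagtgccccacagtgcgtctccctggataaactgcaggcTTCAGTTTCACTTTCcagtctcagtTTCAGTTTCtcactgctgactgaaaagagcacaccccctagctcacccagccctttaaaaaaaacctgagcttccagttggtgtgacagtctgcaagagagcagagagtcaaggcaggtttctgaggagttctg

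GAANNTTC was found in a window of 13 of the 26 heat shock genes with one (50%), against 9.04% of 27025 genes in the whole table. GGNNTTTCC was found in 11 of 29 TNF and NF-kappa-B genes (37.9%) and 5 of 16 CXC genes (31.2%), against 6.62% of all genes. GAAANNGAA was found in 21 of 29 interferon genes (72.4%), against 9.76%. Counted over all 32851 windows, the 3 motifs were held by 7.86%, 5.82% and 8.56%. On Nfkbia and Ifit1 some or all of the matches lie on the strand opposite to the gene, and the Ifit1 matches overlap each other in part. A match describes the letters in the window, not a site in use, and binding was not measured here. Of the 5 genes shown, none was called under the labels, and Hspa1a, Cxcl2 and Nfkbia met the thresholds lower under the published grouping.

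Chemokines showed the pattern of the libraries plainly. Cxcl2 stood at 53.4, 0.764 and 66.8 CPM in MIRI 1 to 3 and at 0.348, 14.2 and 72.1 CPM in GXNI 1 to 3, with 0.321 to 0.595 CPM in sham hearts. MIRI 2 and GXNI 1 were thus near the sham level while GXNI 3 was the highest library, so the labelled groups overlapped. The log2 fold change was -0.47 under the labels (95% interval -4.47 to 3.53) and -3.63 (standard error 1.02) under the published grouping. Cxcl1, a chemokine of the same receptor, stood at 43.7, 3.11 and 52.1 CPM in MIRI and 3.87, 12.3 and 80.0 CPM in GXNI hearts, with log2 fold changes of -0.03 and -3.16. Of the 17 CXC chemokines and receptors tested, 0 were called under the labels (median log2 fold change -0.22). Under the published grouping 8 were lower (median -1.80), 47.1% against 10.7% of all genes. Cxcr1, which the paper names a key target of GXNI, was below the filter on low counts and was not tested. Cxcl11 and Cxcr3 were not tested either. Of the 19 CC chemokines and receptors, 0 and 9 were called (medians -0.03 and -1.67).

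The receptors of these chemokines signal through G proteins, phosphoinositide 3-kinase and MAP kinases, and the 56 tested members of the IL-8 receptor signaling list cover that cascade. Cxcr1 is listed there too but was not tested. Under the labels 0 were called, the median log2 fold change was -0.08, and 16 members had a 95% interval within 1.5-fold in either direction. Under the published grouping 2 were called higher and 18 lower, with a median of -0.47. Pik3cg, the leukocyte catalytic subunit of the kinase, stood at 11, 3.29 and 15.5 CPM in MIRI and 3.97, 5.65 and 14 CPM in GXNI hearts, giving -0.32 (95% interval -1.89 to 1.24) and -1.63. Gnb4, a G protein beta subunit, had the smallest p of the list under the labels, at 0.32 (95% interval -0.16 to 0.80), and was not called.

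Cytokines of the IL-6 family act through gp130, JAK kinases and STAT3. Il6 stood at 17.8, 0.176 and 24.6 CPM in MIRI 1 to 3 and at 0.596, 2.73 and 31.2 CPM in GXNI 1 to 3, and at 0.107 to 0.535 CPM in sham hearts. GXNI 3 was again the highest and MIRI 2 the lowest library. The log2 fold change was -0.29 (95% interval -4.13 to 3.54) under the labels and -4.34 (standard error 0.66) under the published grouping. Socs3, the feedback inhibitor of JAK signaling, gave -0.16 and -2.37, and its groups overlapped under the labels only. Stat3, the transcription factor of the pathway, differed little in either comparison, at 0.09 (95% interval -0.37 to 0.55) and -0.14. Of 21 members tested, 0 were called under the labels, and 2 higher, the receptor genes Il11ra1 and Lifr, and 10 lower under the published grouping.

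Interleukin-1, Toll-like receptor and NF-kappa-B genes gave values of the same kind. Il1b, the interleukin-1 beta gene, stood at 31.8, 0.823 and 31.1 CPM in MIRI and 1.09, 11.5 and 37.4 CPM in GXNI hearts. Its decoy receptor gene Il1r2 gave a log2 fold change of -0.41 (95% interval -4.17 to 3.35) under the labels and -3.50 under the published grouping. Cd14, the lipopolysaccharide co-receptor, stood at 108, 7.87 and 121 CPM in MIRI and 10.6, 39.6 and 111 CPM in GXNI hearts, giving -0.54 (95% interval -3.11 to 2.02) and -2.53. The NF-kappa-B feedback genes Nfkbia and Tnfaip3 gave -0.00 and 0.23 under the labels, and -1.34 and -2.12 under the published grouping. No member of these 3 lists was called under the labels, with medians of 0.07 for 19 interleukin-1 genes, 0.07 for 22 Toll-like receptor genes and 0.01 for 34 TNF and NF-kappa-B genes. In the published grouping 9, 10 and 18 members were called lower, and 1 gene of the last list, Tnip3 (1.75), was called higher.

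**Figure D3:**
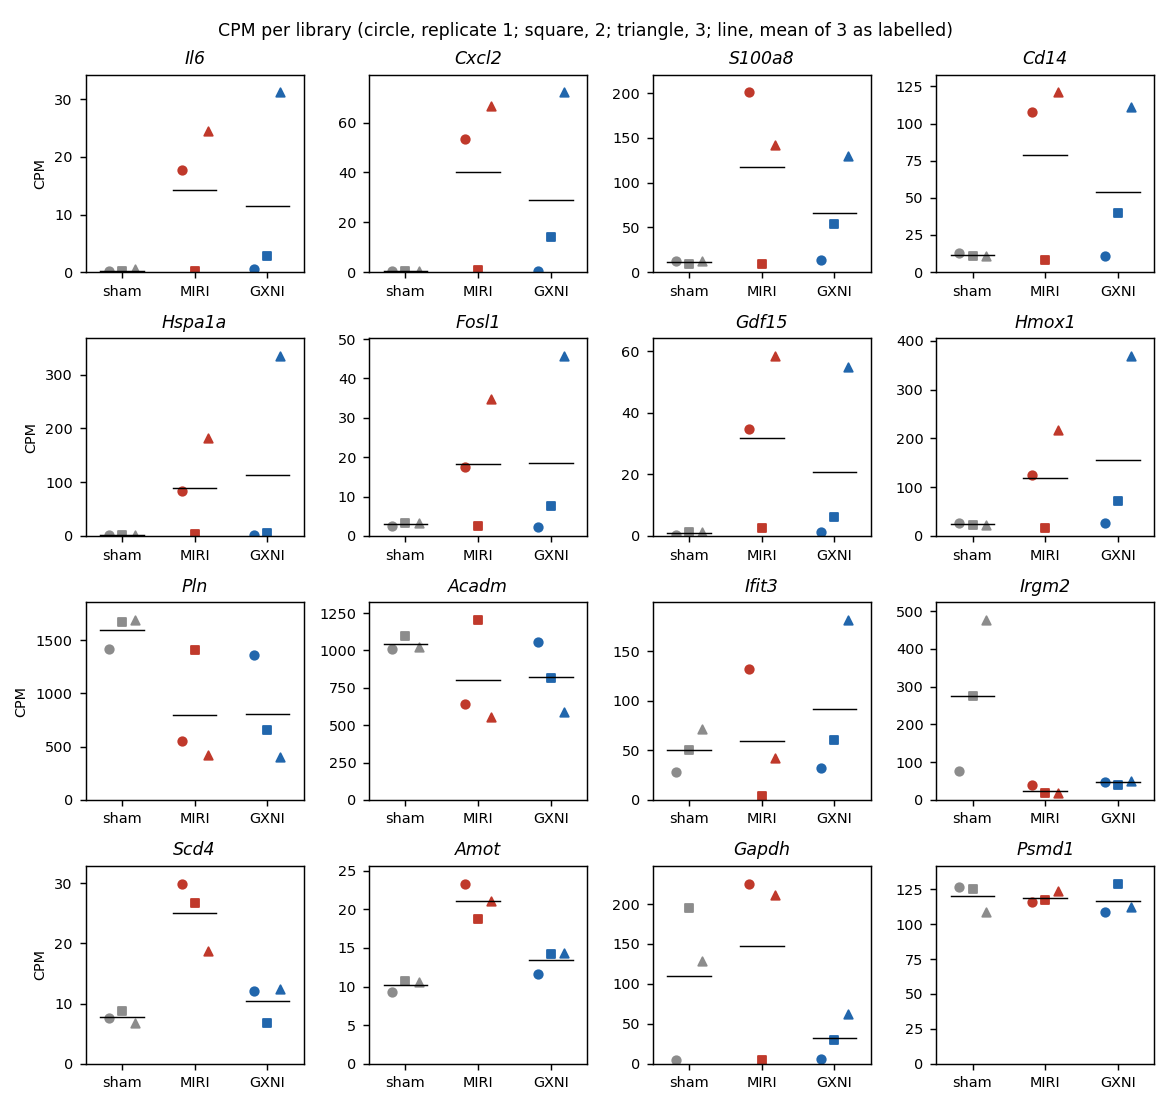
CPM of 16 genes in each sham, MIRI and GXNI library, with a line at the mean of the 3 libraries as labelled; every vertical axis starts at 0. For Il6, Cxcl2, Cd14, Hspa1a, Fosl1, Gdf15 and Hmox1 GXNI 3 lies with MIRI 1 and MIRI 3, and for Scd4 and Amot all GXNI libraries lie below all MIRI libraries.

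Leukocyte markers followed the cytokines. The 20 neutrophil markers tested had levels of 3.49, -1.01 and 3.39 log2 units from sham in MIRI 1 to 3 and 0.07, 2.0 and 3.41 in GXNI 1 to 3. S100a8, a calprotectin subunit of neutrophils, stood at 201, 8.46 and 142 CPM in MIRI and 13.4, 54.1 and 130 CPM in GXNI hearts, with a log2 fold change of -0.83 (95% interval -3.52 to 1.86) under the labels and -2.63 (standard error 0.62) under the published grouping. None of the 20 was called under the labels and 13 were lower under the published grouping, 65% against 10.7% of all genes. The 17 markers of recruited monocytes and macrophages gave 0 and 5 calls, with medians of -0.15 and -1.70. Ccr2, the receptor that brings in monocytes, gave -0.30 (95% interval -2.29 to 1.69) and -1.90.

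Macrophages that reside in the heart did not follow that order. The 14 resident macrophage markers stood at -0.06, -0.14 and -0.54 log2 units from sham in MIRI 1 to 3 and at 0.55, -0.65 and -1.12 in GXNI 1 to 3. GXNI 1 was the highest and GXNI 3 the lowest library, so the GXNI hearts enclosed the MIRI hearts. The hemoglobin scavenger receptor Cd163 gave a log2 fold change of 0.12 (95% interval -1.51 to 1.76) under the labels and 1.08 under the published grouping, and neither was called. The list gave 0 calls under the labels and 1 call, Gas6, higher, under the published grouping. That share of 7.14% is near the 8.56% of all genes.

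In the adhesion and phagocyte oxidase lists MIRI 1, MIRI 3 and GXNI 3 were the 3 highest libraries, as for neutrophil markers. Selp, the P-selectin of activated endothelium and platelets, stood at 20.1, 1.82 and 34.1 CPM in MIRI and 2.98, 4.91 and 38.9 CPM in GXNI hearts. Its log2 fold change was -0.25 (95% interval -3.12 to 2.63) under the labels and -3.23 (standard error 0.37) under the published grouping. Of 19 adhesion genes 0 were called under the labels and 11 lower under the published grouping. All 6 NADPH oxidase genes tested met the thresholds lower under the published grouping, with a median of -1.43, and 0 of them under the labels, with a median of -0.27. In coagulation and fibrinolysis 10 of 22 genes were lower under the published grouping and 0 under the labels, with the urokinase receptor gene Plaur at -3.39 and -0.27.

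The interferon response took opposite signs in the 2 groupings. Under the labels 38 of 38 members had a positive log2 fold change, with a median of 0.55, and under the published grouping 37 of 38 had a negative one, with a median of -1.27. With the 4 libraries common to both groupings the median was -0.52. None was called under the labels, and 2 were called lower under the published grouping. That share of 5.26% is below the 10.7% of all genes called lower. DESeq2 called 4 of the 38 lower, against 6.78% of all genes. MIRI 2 stood at -2.84 log2 units from the sham mean, below the sham range of -1.0 to 0.68, while the other MIRI libraries stood at 0.41 and -0.61 and the GXNI libraries at -0.75, -0.34 and 0.84. Ifit3 showed it with 132, 3.64 and 42.7 CPM in MIRI and 32.1, 60.5 and 181 CPM in GXNI hearts, against 28.3 to 71.9 CPM in sham hearts. The fold change on the log2 scale was 0.61 (95% interval -2.11 to 3.33) and -1.88.

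Irgm2, an interferon-inducible GTPase, was the member with the smallest p under the labels. It stood at 38.8, 17.0 and 17.6 CPM in MIRI and 48.4, 39.9 and 49.9 CPM in GXNI hearts, and the groups did not overlap, as in 2.67% of all genes. All 6 values lay below the sham hearts, at 75.2, 276 and 476 CPM. A log2 fold change of 0.91 (standard error 0.35) had an unadjusted p of 0.0381 in edgeR's quasi-likelihood test and an adjusted p of 1, so it was not called. Irgm2 overlaps Igtp on the same strand, and how reads of the pair were divided is not known. Psme2, a proteasome activator subunit used in antigen processing, gave 0.45 (unadjusted p = 0.0301, edgeR's quasi-likelihood test, adjusted p = 1), without overlap of the groups, and -0.04 under the published grouping. The whole list of MHC class I and immunoproteasome genes gave no call under the labels and 5 of 17 lower under the published grouping. MHC class II gave 0 and 3 of 9, the latter 33.3% lower against 10.7% of all genes.

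Immediate early factors respond to stress within minutes. Of 29 members 21 were lower under the published grouping, with a median of -1.36, and 0 were called under the labels, with a median of 0.04. Fosl1, a FOS-family subunit of AP-1, stood at 17.6, 2.41 and 34.9 CPM in MIRI and 2.38, 7.64 and 45.6 CPM in GXNI hearts, giving 0.03 (95% interval -2.81 to 2.87) under the labels and -2.96 under the published grouping. The stress factor Atf3 gave -0.08 and -2.63, and Egr1, a zinc finger immediate early factor, gave -0.06 and -2.63. In contrast to the chemokines, all 6 hearts exceeded the sham range for this list, from 0.78 in MIRI 2 to 2.68 in GXNI 3.

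Heat shock proteins fold and hold unfolded proteins after stress. Hspa1a stood at 83.5, 3.0 and 182 CPM in MIRI and 2.48, 5.60 and 334 CPM in GXNI hearts, against 1.98 to 2.20 CPM in sham hearts. GXNI 3 alone exceeded the MIRI libraries, and the log2 fold change was 0.37 (95% interval -4.09 to 4.84) under the labels and -5.74 (standard error 0.58) under the published grouping. With the 4 libraries that keep their place it was -5.02. Hspa1b, a near-identical copy, gave 0.47 and -5.72, and reads of the pair may have been split between them, so both values are uncertain. Over the whole list, this pair included, 8 of 32 members were lower under the published grouping and 0 were called under the labels, with medians of -0.22 and 0.01.

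The integrated stress response, hypoxia targets and antioxidant genes gave no call under the labels either. Gdf15, a stress-induced cytokine of injured muscle, stood at 34.7, 2.70 and 58.3 CPM in MIRI and 1.39, 6.20 and 54.9 CPM in GXNI hearts, giving -0.60 (95% interval -3.92 to 2.71) and -3.82. Atf4, the transcription factor of that response, gave -0.04 and -1.57. Slc2a1, the hypoxia-induced glucose transporter, gave -0.12 and -2.67, and Hmox1, the heme oxygenase, gave 0.40 and -2.62. Under the published grouping 10 of 30 ER stress genes, 14 of 22 hypoxia genes and 6 of 29 antioxidant genes were called lower, and 1, 0 and 2 higher. The metallothionein Mt1 differed little in either comparison, at -0.02 (95% interval -0.50 to 0.47) and -0.29.

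In the heart muscle the fetal and stretch genes were called lower in 8 of 15 cases under the published grouping and in 0 under the labels, with medians of -1.38 and -0.27. Nppb, the gene of B-type natriuretic peptide, stood at 1455, 602 and 1915 CPM in MIRI and 32.7, 377 and 2416 CPM in GXNI hearts. Here MIRI 2 was well above the sham hearts, at 10.6 to 87.7 CPM, and GXNI 1 was within their range. Its log2 fold change was -0.48 (95% interval -3.45 to 2.49) and -2.50, and neither was called. Acta1, the skeletal actin of the fetal program, gave -0.26 and -0.17.

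Some genes of the working muscle were higher under the published grouping. Pln, the phospholamban gene that restrains the calcium pump, stood at 553, 1407 and 422 CPM in MIRI and 1358, 656 and 398 CPM in GXNI hearts, with 1418 to 1685 CPM in sham hearts. The log2 fold change was 0.02 (95% interval -1.44 to 1.48) under the labels and 1.33 (standard error 0.30) under the published grouping. The calcium pump gene Atp2a2 gave 0.09 and 0.89, and the release channel gene Ryr2 gave 0.05 and 0.86. In the published grouping 8 of 21 calcium handling genes and 12 of 27 channel genes were called higher, against 8.56% of all genes, and 0 of either under the labels. The potassium channel subunit Kcnv2 gave the largest change of these lists, 2.80, against 0.50 under the labels. The 28 sarcomere genes gave 3 calls, all higher, under the published grouping, a share of 10.7% that is near the 8.56% of all genes, and 0 under the labels. DESeq2 called 5 of the 28 higher and 1 lower under the published grouping, against 5.32% and 6.78% of all genes.

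Fatty acid genes gave more higher calls under the published grouping than any other of the 54 lists. Acadm, the medium-chain acyl-CoA dehydrogenase of fatty acid oxidation, stood at 644, 1202 and 553 CPM in MIRI and 1054, 817 and 588 CPM in GXNI hearts, against 1008 to 1094 CPM in sham hearts. Its log2 fold change was 0.04 (95% interval -0.86 to 0.93) under the labels and 0.80 (standard error 0.18) under the published grouping. Of 34 fatty acid genes 23 were called higher and 1 lower under the published grouping, with a median of 0.69. That is 70.6%, against 19.2% of all genes in either direction. Under the labels 0 were called, with a median of -0.02. Of 21 genes of branched-chain amino acid catabolism 13 were called higher under the published grouping, led by the phosphatase Ppm1k at 1.61 (-0.14 under the labels), and 0 under the labels. The 20 TCA cycle genes gave 3 higher calls under the published grouping, a share of 15% against 8.56% of all genes, and 20 of 20 did not overlap between the sets, against 46.3% of all genes. Ogdh, a subunit of the oxoglutarate dehydrogenase complex and 1 of the 3, gave 0.79, and 0.05 under the labels. Pdk4, the kinase that shuts off pyruvate oxidation, was not called in either comparison, at 0.52 (95% interval -0.27 to 1.32) and 0.24.

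Glycolysis showed 7 genes higher and 8 lower of 31 under the published grouping and 0 calls under the labels. Gapdh, the glycolytic enzyme often used as a reference gene, varied widely in all groups. It stood at 5.10, 195 and 128 CPM in sham hearts, 225, 5.11 and 211 CPM in MIRI hearts and 6.06, 30.1 and 62.4 CPM in GXNI hearts, a 44.1-fold range over the 9 libraries. The range within sham hearts alone was 38.2-fold. Gapdh has pseudogene copies that can share its reads, so its level is uncertain, and its log2 fold changes were -2.15 (95% interval -5.24 to 0.93) and -3.58.

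The constitutive proteasome, which degrades tagged proteins, was the list with the narrowest intervals under the labels. Of its 31 genes 0 were called in either comparison, with medians of -0.06 and -0.07. Under the labels 25 of the 31 had a 95% interval within 1.5-fold in either direction, against 24% of all tested genes. Psmd1, a regulatory subunit, stood at 116, 118 and 124 CPM in MIRI and 109, 129 and 112 CPM in GXNI hearts, with a log2 fold change of -0.02 (95% interval -0.37 to 0.32). Of 70 nuclear-encoded respiratory chain genes 41 had such an interval under the labels, with a median of 0.00 and 0 calls. In the published grouping the respiratory chain genes were shifted together, with 70 of 70 positive, a median of 0.35, 58 of 70 without overlap against 46.3% of all genes, and 2 called higher. Autophagy and mitophagy genes had such an interval in 14 of 31 cases under the labels, with 0 calls, and 5 of 31 were called higher under the published grouping, against 8.56% of all genes. The 13 transcripts of mitochondrial DNA gave 0 calls in either comparison, but 1 of 13 had an interval within 1.5-fold under the labels, so larger differences cannot be set aside for them.

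**Figure D4:**
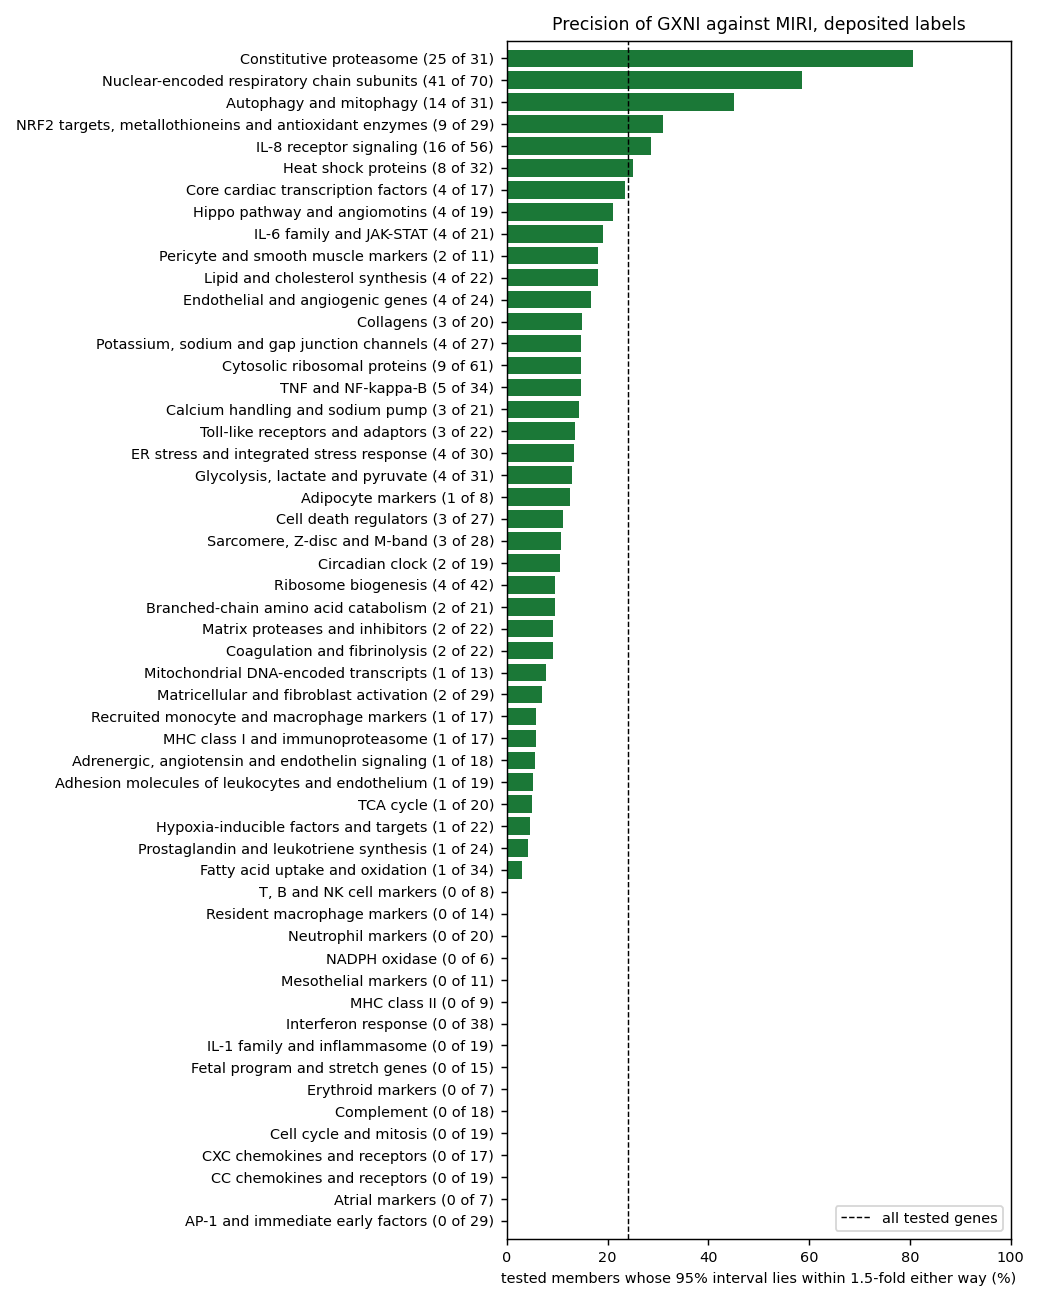
Share of the tested members of each list whose 95% interval of the GXNI against MIRI log2 fold change under the deposited labels lies within 1.5-fold in either direction, with the count in brackets and the share over all tested genes as a dashed line. The constitutive proteasome (25 of 31) and the respiratory chain (41 of 70) lead, and the chemokine, neutrophil and AP-1 lists stand at 0.

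For the inflammatory lists the intervals were too wide for such a statement. Of the 17 CXC, 19 CC, 20 neutrophil, 29 AP-1 and 38 interferon genes, 0 had an interval within 1.5-fold under the labels, and the median interval of the neutrophil markers reached 2.76 log2 units to either side. The absence of calls in these lists under the labels therefore does not show that they were equal between the groups.

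Genes of ribosome assembly and ribosomal proteins were mostly negative in both comparisons. Of 42 ribosome biogenesis genes 20 were called lower under the published grouping, with a median of -0.75, and 0 under the labels, with a median of -0.09. Of 61 cytosolic ribosomal protein genes, which share reads with many pseudogenes and are uncertain for that reason, 1 was called lower under the published grouping and 0 under the labels, while 61 of 61 and 60 of 61 were negative, with medians of -0.36 and -0.12. Polr1e, a subunit of RNA polymerase I, had the smallest p of the biogenesis list under the labels. Its labelled groups did not overlap, as in 2.67% of all genes, at 31.1, 28.7 and 31.1 CPM in MIRI and 18.5, 26.9 and 20.8 CPM in GXNI hearts. The log2 fold change of -0.45 (unadjusted p = 0.0441 in edgeR's quasi-likelihood test, adjusted p = 1) was not called.

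In the extracellular matrix the provisional, wound-type proteins followed the cytokines and the collagens did not. Thbs1, the matricellular thrombospondin 1, stood at 531, 37.9 and 1008 CPM in MIRI and 20.8, 175 and 891 CPM in GXNI hearts, giving -0.52 (95% interval -3.86 to 2.82) and -3.37. Under the published grouping 12 of 29 matricellular genes were called lower, as were 10 of 22 proteases and inhibitors, of which 3 were called higher, and 0 were called under the labels. Of 20 collagens 2 were called lower, 10% against 10.7% of all genes. DESeq2 called 5 of them higher and 4 lower, against 5.32% and 6.78% of all genes. Their log2 fold changes ran in both directions under the published grouping, from -1.78 to 1.88, with a median of 0.18. Col1a1, the fibrillar collagen chain of scars, gave 0.87 without a call, against 0.20 under the labels.

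Acta2 and Tgfb3 had labelled groups that did not overlap, as had 2.67% of all genes tested. Each was named as the smallest p of a list, Acta2 of pericyte and smooth muscle markers and Tgfb3 of matricellular genes. Acta2, the actin of smooth muscle and myofibroblasts, stood at 185, 188 and 165 CPM in MIRI and 116, 149 and 78.8 CPM in GXNI hearts, with 66.5 to 101 CPM in sham hearts. Its log2 fold change was -0.65 (unadjusted p = 0.0390 in edgeR's quasi-likelihood test, adjusted p = 1) under the labels and 0.09 under the published grouping. Tgfb3, a transforming growth factor beta, stood at 19.5, 16.9 and 22.8 CPM in MIRI and 14.6, 13 and 11.8 CPM in GXNI hearts, with 10.3 to 13.1 CPM in sham hearts, and gave -0.58 (unadjusted p = 0.0182, edgeR's quasi-likelihood test, adjusted p = 1) and -0.27. Neither was called.

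The 3 genes called under the labels were Scd4, Amot and Gm2260. Scd4 (ENSMUSG00000050195, chr19:44333092-44346743, forward strand) encodes a stearoyl-CoA desaturase of the heart. It stood at 29.9, 26.7 and 18.7 CPM in MIRI and 12.0, 6.79 and 12.4 CPM in GXNI hearts, and at 6.85 to 8.73 CPM in sham hearts. Every GXNI library lay below every MIRI library, and MIRI lay above sham. The log2 fold change was -1.27 (standard error 0.31, unadjusted p = 0.00535 in edgeR's quasi-likelihood test, adjusted p = 1). In the same test the unadjusted value rose to 0.0218 without MIRI 1, 0.0130 without MIRI 2 and 0.0130 without GXNI 2, which ends the call. In the published grouping the value was -0.41 and Scd4 was not called.

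The lipid and cholesterol synthesis list to which Scd4 belongs was the one whose levels did not overlap between the labelled groups, at 0.12, 0.07 and 0.24 log2 units from sham in MIRI and -0.12, -0.13 and 0.06 in GXNI hearts. Without Scd4 the levels of the other 21 members overlapped, at 0.03, -0.02 and 0.20 in MIRI and -0.16, -0.13 and 0.03 in GXNI hearts, so the separation of the list rests on the called gene. That check was chosen after the values were seen. Of 22 members tested 17 had a negative log2 fold change, the median was -0.18, and 4 had groups that did not overlap, against 2.67% of all genes. Scd4 was the single call. Under the published grouping 3 members were called higher and 5 lower.

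Amot (ENSMUSG00000041688, chrX:145446425-145505181, reverse strand) encodes angiomotin, a junction protein that binds the Hippo effector YAP. It stood at 23.2, 18.7 and 21.1 CPM in MIRI, 11.6, 14.2 and 14.4 CPM in GXNI and 9.29 to 10.7 CPM in sham hearts, so that GXNI libraries lay between sham and MIRI. The fold change on the log2 scale was -0.65 (standard error 0.18, unadjusted p = 0.00930 in edgeR's quasi-likelihood test, adjusted p = 1), and the published grouping gave -0.39 without a call. With any single library of the 6 left out, the unadjusted p of Amot was 0.0118 to 0.040 in edgeR's quasi-likelihood test, so the call rests on all of them. Yap1, the effector gene itself, gave 0.03 (95% interval -0.48 to 0.54) and -0.35. Of 19 Hippo genes tested Amot was the single call under the labels, and 4 were called lower under the published grouping.

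Gm2260 (ENSMUSG00000098428, chr14:26016431-26025837, forward strand), a gene model without a known role, was counted 27, 110 and 22 times in MIRI, 2, 5 and 5 times in GXNI and 68, 7 and 20 times in sham hearts. Sham hearts thus spanned the values of both groups. The log2 fold change was -3.74 (standard error 0.95, unadjusted p = 0.00611 in edgeR's quasi-likelihood test, adjusted p = 1), and 1.41 under the published grouping, where MIRI 2 is the highest library. Without MIRI 2 the labelled value was -2.35 (unadjusted p = 0.00625 in edgeR's quasi-likelihood test), and without GXNI 1, GXNI 2 or GXNI 3 its unadjusted p was 0.0234, 0.0225 and 0.0143 in that test, which ends the call.

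The remaining lists gave no call under the labels. In the published grouping 11 of 27 cell death regulators (40.7%) were called lower, against 10.7% of all genes. So were 5 of 24 prostaglandin and leukotriene genes (20.8%). Of 17 T, B and NK cell markers 9 were below the filter, Cd3e and Cd8a among them, and 5 of the 8 tested were called lower. Of 24 endothelial genes 1 was called higher and 10 lower (medians -0.03 under the labels and -0.59), of 11 pericyte and smooth muscle markers 2 higher, and of 18 complement genes 1 higher and 3 lower. The complement share of 22.2% is near the 19.2% of all genes called in either direction. DESeq2 called 3 of the 19 listed complement genes higher and 3 lower, against 5.32% and 6.78% of all genes. Core cardiac transcription factors gave 4 of 17 higher (medians -0.11 and 0.39), and adrenergic, angiotensin and endothelin genes 5 higher and 3 lower of 18. Adipocyte markers gave 1 of 8 higher (12.5%), near the 8.56% of all genes, and erythroid markers 0 of 7. With DESeq2 4 of the 15 listed adipocyte markers and 1 of the 9 listed erythroid markers were higher, against 5.32% of all genes.

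Markers of tissue other than the ventricular wall differed between single libraries. The 11 mesothelial markers tested, genes of the sheet that covers the heart, stood at -1.57, 0.13 and -0.71 log2 units from sham in MIRI 1 to 3 and at 2.26, 0.24 and -1.77 in GXNI 1 to 3. Msln, mesothelin, was at 27.4 CPM in GXNI 1 and at 0.232 to 3.12 CPM in the other 5 libraries, and Upk3b, a uroplakin of the same cells, was at 12.1 CPM in GXNI 1 and at 0 to 1.70 CPM in the other 5. The list median was 1.5 under the labels and 1.40 under the published grouping, with 0 and 6 calls (5 higher and 1 lower). Krt8, a keratin of these cells, was 1 of the 4 genes called higher by DESeq2 under the labels, and edgeR gave 3.11 without a call. GXNI 1 is in the treated set of both. The part of the tissue sampled in each heart was not tested. Among atrial markers Tbx3, a transcription factor of the conduction system, did not overlap between the labelled groups, at 0.62 (unadjusted p = 0.0191 in edgeR's quasi-likelihood test, adjusted p = 1), and was not called.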

How the data were processed

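RNA of 9 mouse hearts was sequenced. The authors aligned reads with HISAT2 to mm10, counted them per gene with featureCounts (Subread) and deposited whole-number counts that were not normalized. Versions, annotation release and strand setting are not given in the sources used here, so overlapping genes and near-identical copies may share reads. The submitters' processing notes also name DESeq2. Of 54532 gene identifiers, 54409 were paired with a GENCODE M21 symbol (GRCm38) and 123 were not, and 0 columns of other samples were used. Depth was 17119454 to 22811295 counts per library.

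The 6 libraries were fitted with edgeR 4.0.16 (R 4.3.3), using TMM normalization, the default filter and the quasi-likelihood F test. Genes changed 1.5-fold or more with unadjusted p no larger than 0.01 were called, as in the study's methods. The published grouping went through the same fit as a description. CPM used TMM factors over 9 libraries, and list levels used log2 CPM with a prior count of 0.5. Members and the 54 lists (1310 of 1311 genes found) were chosen with earlier results of these data known, and no test was run over a list. Genes named are those marked for display in the lists, every gene called under the labels, the 5 largest called changes per direction and grouping among genes with a mean of at least 1 CPM and no overlap, and in each list the member with the smallest p under the labels and the largest called change in the published grouping, of which a part is printed. A member named for the smallest p in its list has a low p by that choice. Groups without overlap are to be read beside the 2.67% of all genes under the labels. Il11ra1, Lifr and Tnip3 were named after their values were seen, and the motif letters were also set after the data were examined.

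Alternatives were DESeq2 1.42.0, RLE normalization, no filter, mitochondrial genes left out, all 9 libraries in 1 fit, an adjusted p of at most 0.05, the replicate number as a block, each replicate left out, and, added after the values were seen, the 4 libraries common to both groupings. The fits were tested on simulated data. With the spread of the labelled groups edgeR called 40 of 100 genes changed by 1 log2 unit and 89 of 100 changed by 2, among 14450 genes run. The changed genes had over 1 CPM, and each gene was drawn independently, so spread shared by many genes was not simulated. The simulation called 0.824% of unchanged genes, against 0.0203% of all genes in the data under the labels. Its figures may therefore not hold for these libraries. Some items are not reported here.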

Additional observations from a re-analysis of the deposited data

How the results depend on the processing

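Under the deposited labels, the counts of genes called higher and lower (0 and 3) were 4 and 7 with DESeq2, 4 and 6 without the filter and 1 and 8 with all 9 libraries in 1 fit, and 0 passed an adjusted p of 0.05. Leaving out 1 replicate gave 0 to 8 higher and 0 to 9 lower, and 592 to 1846 higher and 951 to 2109 lower under the published grouping. The 4 libraries common to both groupings gave 228 and 520. A change of sign with these 4 was looked for only in genes named other than for display, and called in a fit compared. It was seen against the labels for Hspa1a (-5.02), Hspa1b (-4.74), Ffar2 (-3.68), Tnfaip3 (-1.45), Rsad2 (-1.64) and Fosl1 (-2.37). Against the published grouping it was seen for Gm2260 (-2.62). Medians of whole lists changed sign from the labels too, among them the interferon response (0.55 to -0.52) and AP-1 factors (0.04 to -1.14). MIRI 2 and GXNI 3 are absent from these fits, and beyond that the cause was not tested. RLE normalization and leaving out mitochondrial genes kept both counts within 1.5 times, and the list of mitochondrial transcripts has no value in the latter. Calls per list under the published grouping moved by over 1.5 times in 18 of 54 lists without the filter, 10 with DESeq2 and 43 with the 4 common libraries.

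A fit with a replicate block called 2 genes higher and 1 lower. By edgeR's quasi-likelihood test that block ended the calls of Scd4, at an unadjusted p of 0.0108, and of Amot, at 0.0244, while Gm2260 was still called at 0.00578. Same-numbered GXNI and MIRI libraries correlated at -0.47, 0.14 and 0.72 in their deviations over 14762 genes, and GXNI 1 correlated best with MIRI 2 (0.75), so the numbers were not taken to pair samples.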

Other observations

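The mean level of the 19 cell cycle genes tested lay below the sham hearts in all 6 injured libraries. It was -0.66 to -0.11 log2 units in MIRI and -0.81 to -0.50 in GXNI hearts. Of the 29 listed genes 10 were below the filter. A single gene such as Cenpf, described next, weighs on these means, and levels without it were not computed. Of 19 tested members 0 were called under the labels, and 1 was called higher and 4 lower under the published grouping. The one called higher was Cenpf, a kinetochore protein, which stood at 0.372, 11.9 and 0.823 CPM in MIRI, 13.6, 0.347 and 0.638 CPM in GXNI and 6.53 to 12.0 CPM in sham hearts. Mki67, the proliferation marker, did not share that pattern, at 1.91, 0.470 and 1.21 CPM in MIRI and 0.745, 1.04 and 1.28 CPM in GXNI hearts. Hlf, a clock-controlled transcription factor, stood at 7.76, 26.3 and 5.24 CPM in MIRI, 32.2, 8.23 and 6.09 CPM in GXNI and 32.3 to 39.7 CPM in sham hearts, with log2 fold changes of 0.25 (95% interval -1.75 to 2.24) under the labels and 1.82 under the published grouping, where 5 of 19 clock genes were called higher and 2 lower.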
